A study of Mus musculus with 38 samples.

Results

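The genes described here are 10 components of the machinery that licenses DNA for replication, read from a table of polysome and non-polysome RNA of mouse oocytes and early embryos. They were chosen by symbol: the 6 subunits of the MCM helicase (Mcm2, Mcm3, Mcm4, Mcm5, Mcm6 and Mcm7), the loading factors Cdc6 and Cdt1, the Cdt1 inhibitor geminin (Gmnn) and the sliding clamp Pcna. All 10 of 10 were found among 23125 genes, and all 10 passed the filter on low values that left 7967 genes for testing. The values are FPKM, a read density scaled to gene length and library size, so levels of different genes can be set beside each other.

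The oocytes and embryos came from wild-type ICR mice, the females at least 6 weeks old and primed with gonadotropin. GV oocytes were fully grown and kept in the prophase of meiosis I with the phosphodiesterase inhibitor IBMX. MII oocytes had matured in culture for 12 h. Zygotes came from females also given hCG before mating. They were recovered 16 h after mating as pronuclear interphase embryos, and two-cell embryos developed from such zygotes in culture. Fertilization and the place of maturation therefore cannot be told apart between MII oocytes and zygotes. The M-phase groups, zygote M and two-cell M, were exposed to 10 µM nocodazole, a drug that depolymerizes microtubules. Interphase zygotes were collected when isolated, before culture. Mitosis, drug and time in culture thus cannot be told apart in any comparison of these groups with zygotes. Comparisons with MII oocytes also set drug-treated embryos beside oocytes for which no such exposure is stated. The wording of the methods leaves unclear whether the interphase two-cell embryos received the drug too. The treatment label of both M-phase groups names meiosis although both are embryos. Each lysate was spread over 10 sucrose gradient fractions, of which the 5 light ones were pooled as non-polysome RNA and the 5 heavy ones as polysome RNA. There were 3 libraries in each of 12 groups, and values of single libraries are given in the order of their letters, A to C, or B to D for zygotes. The study calls the libraries of a group biological replicates and does not say whether they came from separate animals, so p-values measure the spread between these libraries.

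Origins are licensed when the origin recognition complex, Cdc6 and Cdt1 load a pair of MCM rings onto DNA. Licensing takes place in late mitosis and G1, when geminin, which binds and inhibits Cdt1, has been degraded, and it is shut off once S phase begins so that no stretch of DNA is copied more than once. The egg stores these components as maternal mRNA and protein, because the embryo replicates its first genome before its own transcription has fully started. In full-grown oocytes a stored mRNA is typically translated or masked through elements near its 3′ end, among them the cytoplasmic polyadenylation element.

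The genes lie on 8 chromosomes, in the GRCm38 coordinates of the deposited table: Mcm2 at chr6:88883474-88898781, Mcm3 at chr1:20802968-20820313, Mcm4 at chr16:15623897-15637401, Mcm5 at chr8:75109569-75128440 and Mcm6 at chr1:128331590-128359665. Mcm7 lies at chr5:138164583-138172423, Cdc6 at chr11:98907801-98923941, Cdt1 at chr8:122568015-122573555, Gmnn at chr13:24751845-24761924 and Pcna at chr2:132249162-132253315. All 10 are annotated as protein coding. RefSeq promoter windows (GRCm38.p6, 250 bases before to 50 after the start) were matched for 8 of the 10 genes, 9 windows in all, since Mcm7 has 2. E2F-type letters, which E2F factors bind in front of many S phase genes, were searched as TTCCCGC, as TTCGCGC, as TTGCCGC and as TTGGCGC on both strands, counting overlapping matches. They occur in 7 of these 9 windows, those of Mcm3, Mcm5, Mcm6, Mcm7 (both), Cdc6 and Cdt1, and in 9.57% of all 32851 windows. CCAAT on either strand occurs in 7 of the 9 and in 37.4% of all windows. The windows of 3 subunits are shown with E2F-type letters in capitals: Mcm5, the most abundant subunit, Mcm6, whose window holds 5 matches, and Mcm2, whose window holds none and whose fitted difference at the first mitosis (zygote M against zygote) had the opposite sign to those of the other subunits. They are chr8:75109259-75109558 on the plus strand for Mcm5, chr1:128359656-128359955 on the minus strand for Mcm6 and chr6:88898731-88899030 on the minus strand for Mcm2.
Mcm5: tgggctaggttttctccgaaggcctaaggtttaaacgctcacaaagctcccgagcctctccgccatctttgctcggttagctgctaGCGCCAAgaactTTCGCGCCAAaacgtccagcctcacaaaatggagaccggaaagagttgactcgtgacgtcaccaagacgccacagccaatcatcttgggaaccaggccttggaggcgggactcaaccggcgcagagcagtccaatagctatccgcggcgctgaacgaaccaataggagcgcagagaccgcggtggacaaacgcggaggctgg
Mcm6: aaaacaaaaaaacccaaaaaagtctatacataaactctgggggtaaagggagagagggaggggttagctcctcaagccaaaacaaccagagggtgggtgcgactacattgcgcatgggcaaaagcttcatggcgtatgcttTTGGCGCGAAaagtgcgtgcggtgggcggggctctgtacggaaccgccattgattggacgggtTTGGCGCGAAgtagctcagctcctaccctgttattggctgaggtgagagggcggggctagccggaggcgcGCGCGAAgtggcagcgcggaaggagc
Mcm2: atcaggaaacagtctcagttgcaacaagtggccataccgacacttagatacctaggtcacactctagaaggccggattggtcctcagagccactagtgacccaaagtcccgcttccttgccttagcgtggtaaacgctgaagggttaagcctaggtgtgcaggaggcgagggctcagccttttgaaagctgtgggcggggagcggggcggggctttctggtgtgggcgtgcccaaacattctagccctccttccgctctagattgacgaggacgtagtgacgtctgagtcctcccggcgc

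The cytoplasmic polyadenylation element was searched as TTTTAT or TTTTAAT, on the transcript strand only, in the last 100 bases of the annotated transcript with the longest coding sequence. It is present in 5 of the 10 genes, Mcm2, Mcm4, Mcm7, Cdt1 and Gmnn, and in 17.7% of the 19112 protein-coding genes with an annotated 3′ UTR of that length. The bases around each one are shown with the element in capitals, because it is the best known sequence element of translational control in oocytes, and a match is a description of the letters only. In geminin, 2 elements begin 96 and 86 bases before the end, and the nearer is shown.
Mcm2: tgtagtttattTTTTAATagatttgaataa
Mcm4: tttcattaatTTTTATagatccttagatta
Mcm7: catgctgcacttTTTTATtctgccaataaa
Cdt1: ctagttttggcTTTTAATaaagtcatgtaa
Gmnn: atttttaatccgTTTTATgtaaatagcatt
The polysome values of these 5 genes did not follow 1 course. From interphase to M-phase zygotes the mean log2 difference was 2.36 for Mcm2 and 2.35 for Gmnn, and -1.33, -2.65 and -1.30 for Mcm4, Mcm7 and Cdt1.

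Libraries differed in quality between groups, and this touches every comparison below. The pairwise correlation of log2 FPKM between replicates was 0.956 to 0.961 in zygote polysomes and 0.584 to 0.643 in two-cell non-polysomes. The median SD of a gene between replicates was 0.23 log2 units in zygote polysomes, 0.42 in MII polysomes, 1.34 in two-cell M polysomes and 1.64 in two-cell non-polysomes. Relative sequencing depth, read from the spacing of the lowest values, ran from 0.318 to 1 of the deepest library, and the shallowest were two-cell M libraries. All 8 oocyte markers were found, with summed levels of 11.6 to 5361 FPKM. Of the cumulus and granulosa markers 7 of 9 were found, summed at 0.07 to 19.1 FPKM, of which Amhr2 alone reached 19.1, and Has2 was at the floor in 35 of 36 libraries. The blood and granulosa markers stood highest in the two-cell and two-cell M groups. The blood markers (4 of 5 found) summed to 99.7 to 162 FPKM in two-cell non-polysomes, 34.3 to 83.7 in two-cell polysomes, 24.4 to 42.5 in two-cell M polysomes and 0.04 to 52.6 in two-cell M non-polysomes, against at most 1.33 in the other 8 groups. Hba-a1, a globin of red blood cells, reached 160 FPKM, while Hbb-bs was at the floor in 33 of 36 libraries and Hbb-bt in 35. The cumulus and granulosa sum was 4.43 to 19.1 FPKM in two-cell M libraries, 0.0782 to 13.1 in two-cell non-polysomes, up to 1.01 in two-cell polysomes and at most 0.38 in the others. The blood sums thus did not overlap between two-cell embryos and any earlier stage in either fraction, and the part of these markers in the results was not tested. Of 5 sperm markers 2 were found, Prm2 and Odf1. Their sum ran the other way, at the floor of 0.02 FPKM in two-cell non-polysomes and in both two-cell M groups, and at 0.781 to 6.31 FPKM in all other libraries, oocytes included.

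Among the helicase subunits, Mcm5 and Mcm7 gave most of the RNA in MII oocytes and zygotes, and no 2 subunits were present at equal levels throughout. In MII polysomes Mcm5 was at 58.8, 48.4 and 50.6 FPKM and Mcm7 at 16.1, 18.5 and 31.0 FPKM. Mcm2 was at 7.03, 7.40 and 7.13 FPKM there, and Mcm4 at 6.95, 6.01 and 1.39 FPKM. Mcm6 was at 3.11, 1.75 and 3.28 FPKM and Mcm3 at 1.05, 1.10 and 1.26 FPKM. The 6 subunits form a ring with 1 copy of each, and their polysome RNA in MII oocytes thus spanned 1 to 59 FPKM. Mcm5 was the highest subunit in 14 of 18 polysome libraries and in 8 of 18 non-polysome libraries. Mcm7 took that place in 3 polysome libraries and 5 non-polysome libraries, and Mcm2 in 1 and 4.

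**Figure D1:**
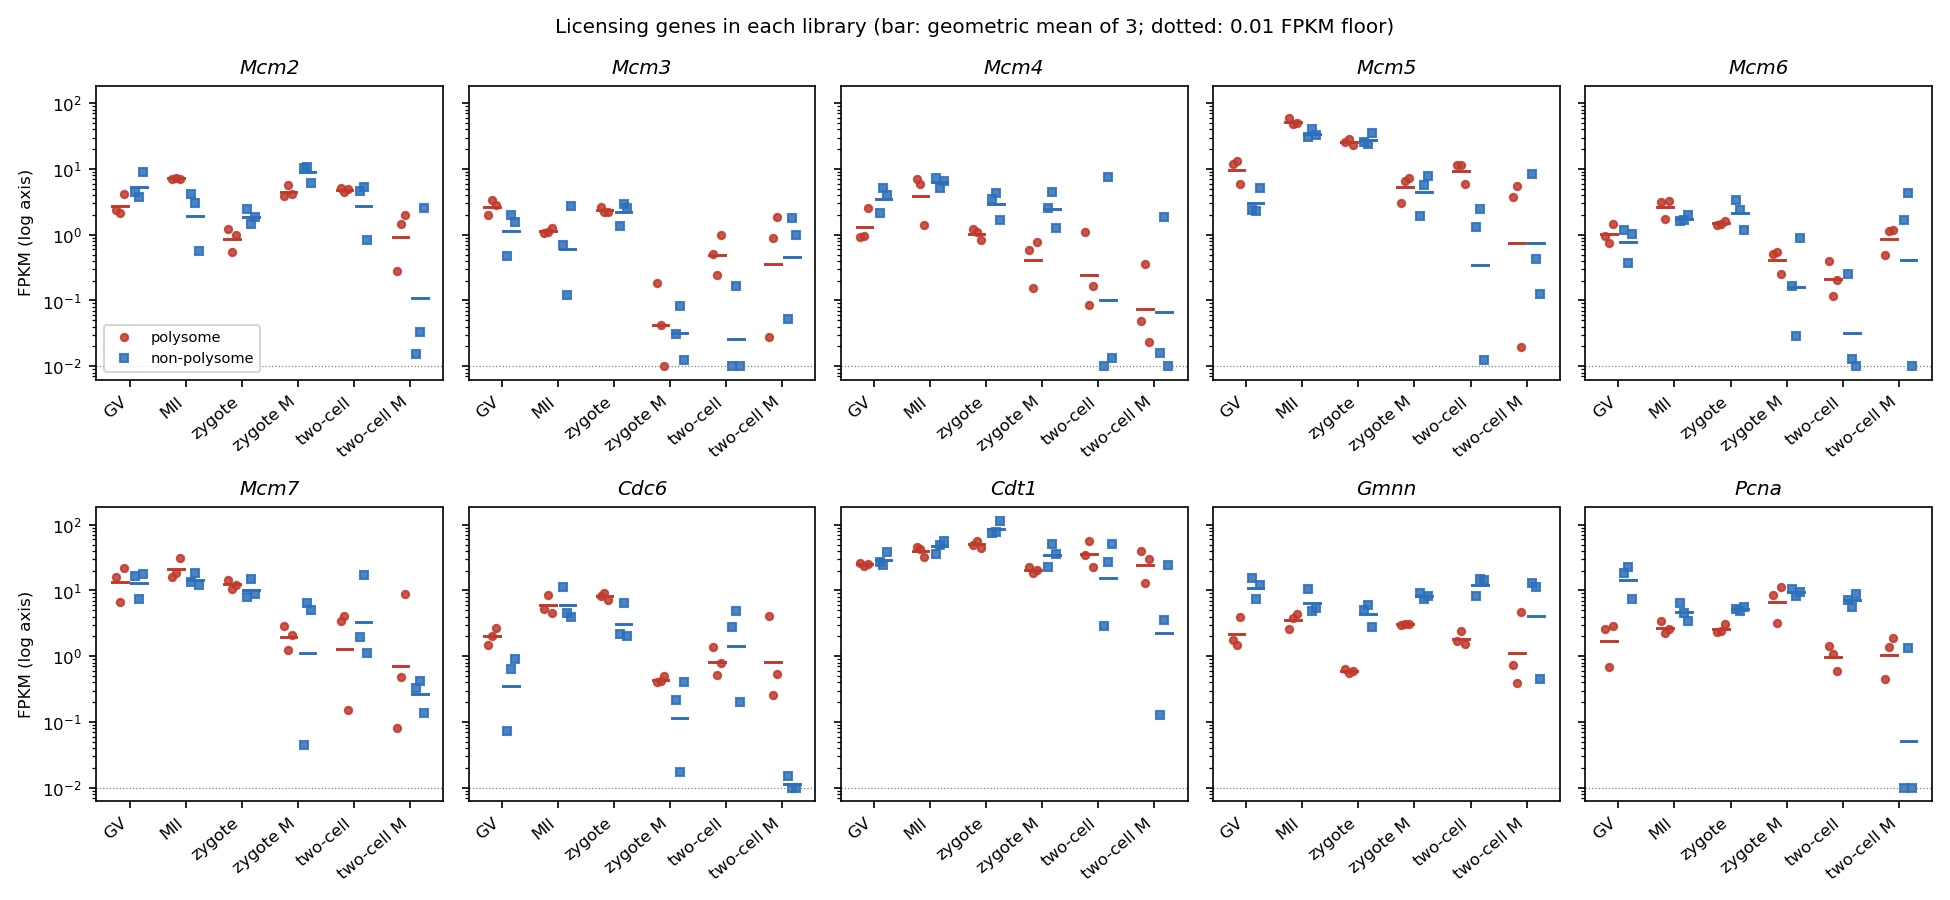
FPKM of each of the 10 genes in every library, on a log axis, by stage, with polysome libraries as circles, non-polysome libraries as squares and bars at the geometric mean of the 3 libraries. Mcm5 peaks in MII oocytes at 48.4 to 58.8 FPKM in polysomes, Cdc6 drops to 0.408 to 0.494 FPKM in zygote M polysomes, and the values of a group lie close together in zygote polysomes and far apart in two-cell M embryos.

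The sum of the 6 subunits in polysomes was 27.0, 34.2 and 38.8 FPKM in GV oocytes in ascending order, and 83.2, 93.1 and 94.6 FPKM in MII oocytes. It was 40.8, 44.6 and 46.8 FPKM in zygotes and 11.1, 14.2 and 14.6 FPKM in zygote M embryos. In two-cell embryos it was 12.4, 20.6 and 22.2 FPKM, and in two-cell M embryos 4.71, 9.84 and 14 FPKM. The order by median was MII, zygote, GV, two-cell, zygote M and two-cell M. MII stood clear of every other stage and zygotes clear of all stages below them, GV was clear of two-cell, whereas two-cell overlapped with zygote M, and zygote M with two-cell M.

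**Figure D2:**
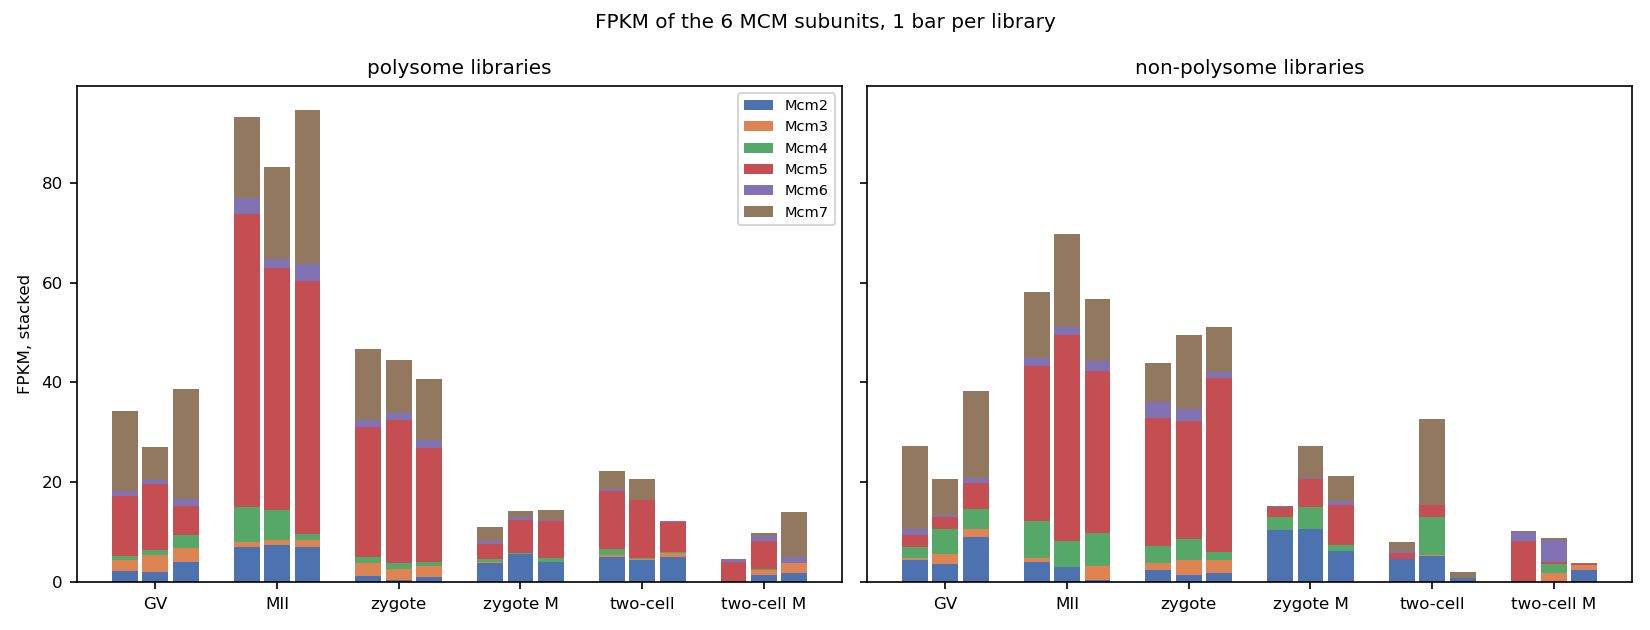
FPKM of Mcm2 to Mcm7 stacked in 1 bar per library, 3 bars a stage, with polysome libraries on the left and non-polysome libraries on the right. The polysome bars of MII oocytes reach 83.2 to 94.6 FPKM, those of zygotes 40.8 to 46.8 FPKM and those of M-phase zygotes 11.1 to 14.6 FPKM, and Mcm5 and Mcm7 make up most of the MII and zygote bars.

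The comparison of M-phase with interphase zygotes asks what the first mitosis does to polysome RNA. Mcm3 and Cdc6 fell in polysomes, and they fell in the non-polysome pool too. Mcm3 was at 2.61, 2.23 and 2.22 FPKM in zygote polysomes and at 0.182, 0.0428 and 0.01 FPKM in zygote M polysomes, the last being the floor of the table, where nothing was measured. Its log2 fold change was -5.78 ± 1.41 (SE, n = 3 a group), with a limma Benjamini-Hochberg adjusted p of 0.01. Cdc6, the ATPase that brings MCM rings to the origin, was at 8.30, 9.18 and 7.14 FPKM in zygotes and at 0.408, 0.416 and 0.494 FPKM in zygote M embryos. This was a log2 change of -4.22 ± 1.13, limma adjusted p = 0.0205. No library of one group reached the range of the other for either gene.

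These were 2 of 10 genes called in polysomes, called meaning an adjusted p below 0.05 and a change of more than 2-fold, against 5.75% of all genes tested. In all 10 genes the 3 zygote M libraries lay entirely above or entirely below the 3 zygote libraries, which held for 56.5% of all genes. Lower were 7 (37.2% of all genes), namely Mcm3, Mcm4, Mcm5, Mcm6, Mcm7, Cdc6 and Cdt1, and higher were Mcm2, Gmnn and Pcna (19.4% of all genes). The median log2 change was -1.60 over the 10 genes and -0.43 over all genes. Both calls rest on few libraries: without zygote M library C the adjusted p of Mcm3 was 0.0862, and leaving out any 1 of the 6 libraries put that of Cdc6 between 0.0515 and 0.0826. When only these 6 tight libraries set the spread, 8 of 10 genes were called (limma, against 33.1% of all genes), all but Mcm4 and Pcna.

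Mcm5 was at 26.0, 28.5 and 22.9 FPKM in zygote polysomes and at 3.0, 6.63 and 7.33 FPKM in zygote M polysomes. Mcm7 was at 14.3, 10.7 and 12.2 FPKM against 2.92, 1.23 and 2.10 FPKM. Both were lower in every M-phase library, with log2 changes of -2.29 ± 1.59 (limma adjusted p = 0.571) and -2.65 ± 1.47 (limma adjusted p = 0.410) that did not pass in the fit over all libraries. With the 6 libraries alone the limma adjusted p was 0.00455 for Mcm5 and 0.00229 for Mcm7.

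Geminin and Mcm2 lay on the other side. Gmnn was at 0.650, 0.553 and 0.598 FPKM in zygote polysomes and at 2.95, 3.14 and 3.06 FPKM in zygote M polysomes. Every M-phase value was at least 4 times every interphase value, with a log2 difference of 2.35 ± 0.88 (limma adjusted p = 0.130 over all libraries and 0.000827 with these 6). Mcm2 was at 1.23, 0.543 and 1.01 FPKM in zygotes and at 3.94, 5.61 and 4.09 FPKM in zygote M embryos. The difference was 2.36 ± 1.15 on the log2 scale (limma adjusted p = 0.307, and 0.00433 with these 6 libraries). Mcm2 was thus higher in the M-phase libraries while the other 5 subunits were lower in them.

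In the non-polysome pool the same comparison called Mcm3 and Cdc6, 2 of 10 against 10.4% of all genes. Mcm3 was at 1.38, 2.93 and 2.57 FPKM in zygotes and at 0.0307, 0.0821 and 0.0124 FPKM in zygote M embryos, a log2 change of -6.11 ± 1.41 (limma adjusted p = 0.00502). This call held under every alternative tried, but its size rests on zygote M values near the 0.01 FPKM of the table and was -1.63 with 1 FPKM added in non-polysomes and -1.64 in polysomes. Cdc6 went from 2.16, 6.54 and 2.02 FPKM to 0.213, 0.0174 and 0.411 FPKM, a log2 change of -4.73 ± 1.13 (limma adjusted p = 0.00659, and 0.0631 without zygote M library B). The groups did not overlap in 9 of 10 genes, with 3 higher and 6 lower, against 36.6% of all genes. The test of whether the change differed between the fractions called 0 of 10 genes in limma, against 0.289% of all genes, and 0 of 10 had an unadjusted p under 0.05. With only these libraries it also called 0 of 10, against 4.69% of all genes. FPKM are shares of a library, so a lower or higher value here does not give the amount of RNA per embryo.

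**Figure D3:**
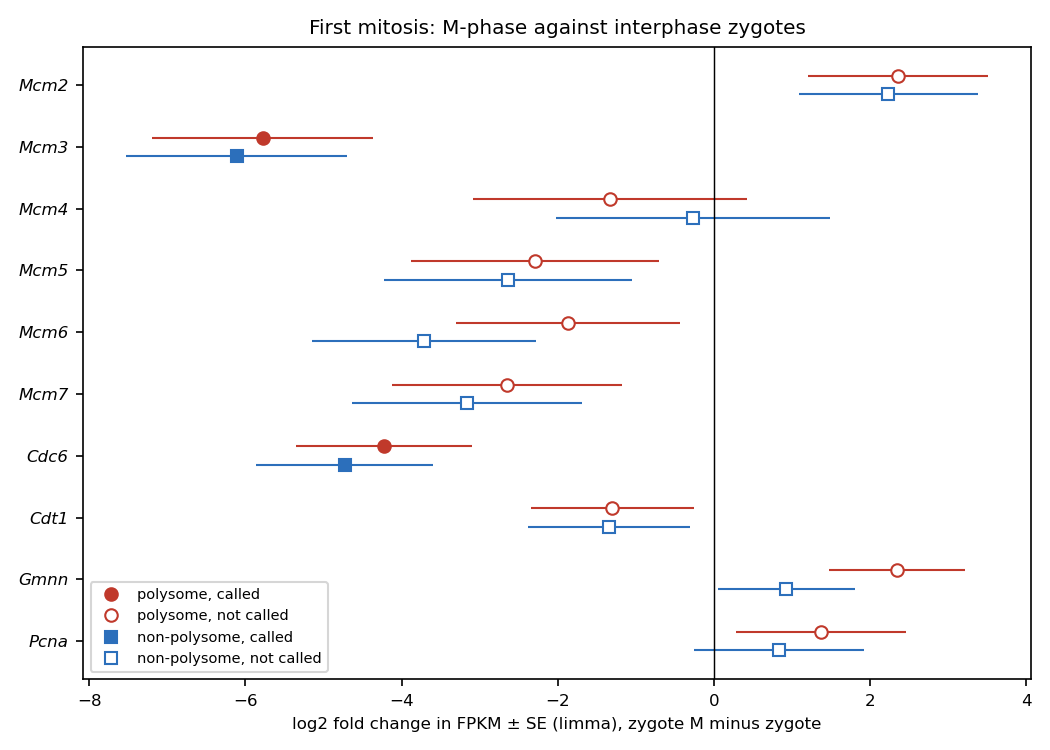
Log2 fold change in FPKM between zygote M and zygote embryos (x axis) for each gene, with limma standard errors, circles for polysomes and squares for non-polysomes, filled where called. Mcm3 and Cdc6 lie at -5.78 and -4.22 in polysomes and at -6.11 and -4.73 in non-polysomes, and Mcm2, Gmnn and Pcna lie above 0 in both.

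Cdt1, which works with Cdc6 to load the helicase, was the most abundant of the 10 genes by mean polysome level at 5 of 6 stages, MII being the exception, where Mcm5 was higher. It was at 26.4, 23.3 and 25.1 FPKM in GV polysomes, at 46.2, 42.8 and 32.0 FPKM in MII, and at 49.8, 57.0 and 45.0 FPKM in zygotes. It was at 22.6, 18.2 and 20.8 FPKM in zygote M, at 35.2, 56.1 and 22.5 FPKM in two-cell embryos and at 39.3, 13.1 and 29.7 FPKM in two-cell M embryos. The limma F-test over the 6 polysome stages gave it an adjusted p of 0.832, the largest of the 10, and the groups that did not overlap were MII and zygotes above GV and above zygote M, GV above zygote M, and zygotes above two-cell M. In the non-polysome pool Cdt1 was highest in zygotes, at 74.9, 78.3 and 114 FPKM, and there the stage test passed (limma adjusted p = 0.00111).

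Geminin had a lower mean log2 FPKM in polysomes than in the non-polysome pool at every stage, and its 2 groups did not overlap at 5 of 6 stages. Each library was scaled on its own, so this compares shares of libraries. In GV oocytes it was at 1.75, 1.47 and 3.90 FPKM in polysomes and 15.5, 7.29 and 11.9 FPKM outside them. In MII oocytes the values were 2.59, 3.79 and 4.35 FPKM against 10.4, 4.90 and 5.32 FPKM. In zygotes the polysome values given above stood against 4.98, 5.96 and 2.74 FPKM, and in zygote M embryos against 9.14, 7.43 and 8.25 FPKM. In two-cell embryos they were 1.72, 2.39 and 1.51 FPKM against 8.26, 14.8 and 14.4 FPKM, a log2 ratio of -2.72 ± 0.88 that was called (limma adjusted p = 0.0334). That call was lost on leaving out any 1 of the 6 libraries except non-polysome A, with adjusted p-values up to 0.0908. The log2 ratio was -2.36 in GV, -0.89 in MII, -2.85 in zygotes, -1.44 in M-phase zygotes and -1.88 in M-phase two-cell embryos, where the libraries overlapped, and none of these 5 was called.

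Set beside each other, the Cdt1 to Gmnn ratio of FPKM within a polysome library was highest in interphase zygotes. It was 75.1, 76.5 and 103 in zygote polysomes and 5.81, 6.79 and 7.66 in zygote M polysomes. The other polysome ranges were 6.43 to 15.9 in GV, 7.34 to 17.8 in MII, 14.9 to 23.4 in two-cell and 6.36 to 53.1 in two-cell M embryos. Thus the 3 zygote libraries exceeded all 15 other polysome libraries. In the non-polysome pool zygotes ranged from 13.1 to 41.8 and GV oocytes from 1.72 to 3.37, and in 1 of 3 two-cell libraries geminin exceeded Cdt1. The two-cell M non-polysome libraries lay on both sides of these, at 0.00976, 0.319 and 54.4, the last above every zygote library of that pool. The ratio is a description of 2 members and was given no test.

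**Figure D4:**
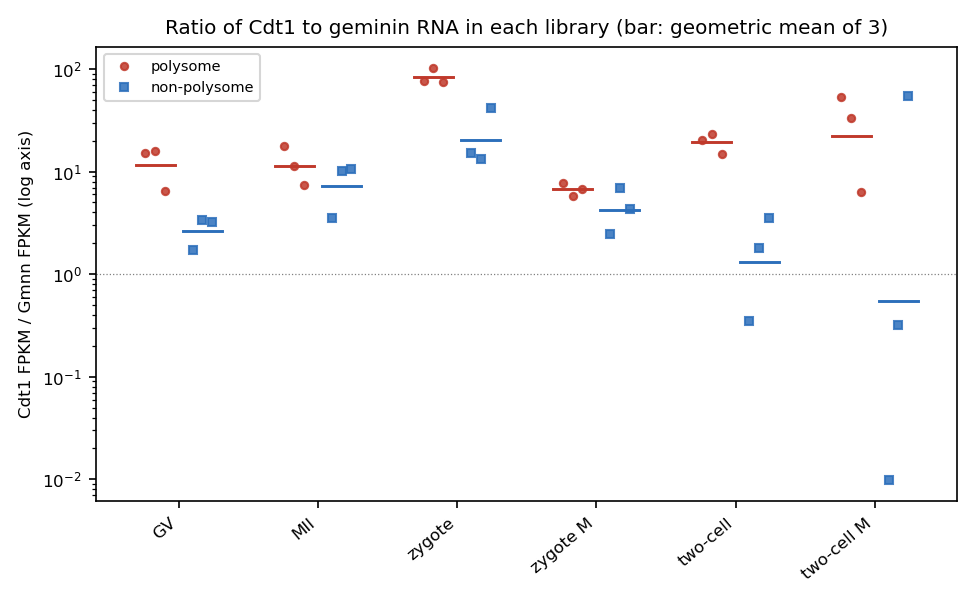
Cdt1 FPKM divided by Gmnn FPKM in each library, on a log axis, by stage and fraction, with bars at the geometric mean of the 3 libraries and a dotted line at equal levels. The 3 zygote polysome libraries sit at 75.1 to 103, above all other polysome libraries, and the 3 zygote M polysome libraries sit at 5.81 to 7.66.

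The comparison of MII with GV oocytes covers meiotic maturation, when transcription is silent. In polysomes limma called 0 of 10 genes, against 6.11% of all genes. At an unadjusted p under 0.05 it gave 0 of 10, against 1431 of all 7967 genes. The values of 6 genes nonetheless did not overlap, with 5 higher in MII and Mcm3 lower, against 47.5% of all genes. Mcm5 was at 12, 13.2 and 5.82 FPKM in GV polysomes, below all MII values given above, a log2 difference of 2.43 ± 1.59 (limma adjusted p = 0.461, and 0.00549 with only these libraries, where 4 of 10 genes were called against 27.1% of all genes). Mcm3 was at 2.02, 3.39 and 2.79 FPKM in GV oocytes, and the log2 difference was -1.24 ± 1.41. In the non-polysome pool Cdc6 had higher FPKM in MII oocytes, 1 of 10 genes called against 16.6% of all genes. It was at 0.0740, 0.647 and 0.910 FPKM in GV oocytes and at 11.4, 4.50 and 4.0 FPKM in MII oocytes. Its log2 change was 4.07 ± 1.13 (limma adjusted p = 0.0128, but up to 0.105 with 1 library left out, the call being lost without GV library A or MII library A). In polysomes the log2 difference of Cdc6 was 1.55 ± 1.13 (limma adjusted p = 0.519). FPKM are shares of a library, so these values do not show more Cdc6 RNA per oocyte. The test of a different change in the fractions called 0 of 10 genes (limma, 0.163% of all genes, 0 of 10 with an unadjusted p under 0.05).

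From MII oocyte to zygote, across fertilization, limma called 0 of 10 genes in polysomes (4.57% of all genes) and 0 of 10 in non-polysomes (3.28%). At an unadjusted p under 0.05 there were 2 and 0, with 975 of all 7967 genes in polysomes. The 2 were Mcm2 and Gmnn, whose zygote polysome values lay below all MII values, with log2 differences of -3.04 ± 1.15 and -2.54 ± 0.88 (limma adjusted p = 0.180 and 0.115). With only these 6 libraries both were called (limma adjusted p = 0.000531 and 0.000479), among 5 of 10 genes against 35.4% of all genes. The Cdc6 groups overlapped, at 5.28, 8.65 and 4.59 FPKM in MII polysomes against the 7.14 to 9.18 FPKM of zygotes. The test of a different change in the 2 fractions called 0 of 10 genes in limma (0.0377% of all genes, 0 of 10 with an unadjusted p under 0.05).

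Zygote against GV compares the 2 interphases around fertilization, and it called 0 of 10 genes in polysomes (limma, 5.61% of all genes). At an unadjusted p under 0.05 limma gave 1 of 10, against 1344 of all 7967 genes. Cdc6 was at 1.51, 2.03 and 2.71 FPKM in GV polysomes, below all 3 zygote values, with a log2 difference of 2.01 ± 1.13 (limma adjusted p = 0.393, and 0.00518 with only these libraries, which called 5 of 10 genes against 31.0% of all genes). The groups of 5 genes did not overlap, against 54.4% of all genes: besides Cdc6, Mcm5 and Cdt1 were higher in zygotes and Mcm2 and Gmnn lower.

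Between zygotes and two-cell embryos, the interval in which the mouse genome becomes active, the polysome comparison called 1 gene of 10, in the lower direction, as were 9.82% of all genes. Cdc6 fell to 1.37, 0.520 and 0.798 FPKM, a log2 change of -3.30 ± 1.13 (limma adjusted p = 0.0448, and 0.0545 to 0.138 with any 1 library left out). The call also ended with the letters as a replicate block (limma adjusted p = 0.0541) and without the filter on low genes. With only these 6 libraries 7 of 10 were called, against 33.8% of all genes. Mcm6, at 1.41, 1.48 and 1.64 FPKM in zygotes, was at 0.396, 0.115 and 0.206 FPKM in two-cell embryos. Mcm7 was at 3.49, 4.06 and 0.150 FPKM there, all below the zygote range. Mcm2 and Gmnn again lay higher, Mcm2 at 5.08, 4.46 and 5.01 FPKM, with log2 differences of 2.47 ± 1.15 and 1.62 ± 0.88 that did not pass (limma adjusted p = 0.148 and 0.220).

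In the non-polysome pool 4 of 10 genes fell over the same interval, against 27.6% of all genes called lower and 34.2% called in either direction, and all 4 were MCM subunits. Fitted with only these 6 libraries, limma called 2 of 10, Mcm3 and Mcm6, against 22.3% of all genes, and Mcm4 (adjusted p = 0.235) and Mcm5 (adjusted p = 0.0764) were not called. The blood marker sums given above were also higher in these two-cell libraries, and their part was not tested. Mcm3 was at 0.01, 0.167 and 0.01 FPKM in two-cell embryos, a log2 change of -6.42 ± 1.41 (limma adjusted p = 0.00102). Mcm5 was at 25.5, 23.6 and 34.9 FPKM in zygotes and at 1.33, 2.43 and 0.0126 FPKM in two-cell embryos (-6.33 ± 1.59, limma adjusted p = 0.00322). Mcm6 went from 3.37, 2.41 and 1.20 FPKM to 0.25, 0.0127 and 0.01 FPKM (-6.07 ± 1.43, limma adjusted p = 0.00185). For Mcm3, Mcm5 and Mcm6 the groups did not overlap. The size of these changes rests on two-cell values at or near the 0.01 FPKM of the table: with 1 FPKM added they were -1.60 for Mcm3, -3.83 for Mcm5 and -1.56 for Mcm6, and all 3 were still called. For Mcm4 the groups did overlap, with 3.48, 4.33 and 1.67 FPKM in zygotes against 0.01, 7.59 and 0.0136 FPKM, and its call (-4.86 ± 1.75, limma adjusted p = 0.0330) was lost on leaving out any zygote library or two-cell library A or C, with adjusted p-values up to 0.20. The median of all genes also lay 1.61 log2 units lower in the two-cell libraries, so these 4 changes are smaller by that much relative to it. Relative to the change in non-polysomes, the polysome change was not called for any of the 10 (limma, 1.43% of all genes called). At an unadjusted p under 0.05 limma gave 2 of 10, a count given without the number over all genes.

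Two-cell against GV called 0 of 10 genes in polysomes (limma, 16.7% of all genes). At an unadjusted p under 0.05 limma gave 1 of 10, against 2426 of all 7967 genes. Mcm7 was at 15.9, 6.63 and 22.1 FPKM in GV oocytes, above all 3 two-cell values, with a log2 difference of -3.37 ± 1.47 (limma adjusted p = 0.118). Mcm3, Mcm6 and Cdc6 were also lower with no overlap and Mcm2 higher, which makes 5 of 10 without overlap, against 44.6% of all genes.

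In the second mitosis the polysome calls of the first were not seen. In two-cell M against two-cell polysomes limma called 0 of 10 genes, against 36.3% of all genes. At an unadjusted p under 0.05 it gave 2 of 10, against 3560 of all 7967 genes. Mcm5 was at 11.7, 11.7 and 5.87 FPKM in two-cell and at 3.78, 5.46 and 0.0195 FPKM in two-cell M polysomes, a log2 difference of -3.65 ± 1.59 (limma adjusted p = 0.0734). Mcm2 was at 5.08, 4.46 and 5.01 FPKM in two-cell and at 0.282, 1.48 and 1.97 FPKM in two-cell M polysomes (-2.37 ± 1.15, limma adjusted p = 0.109). For both of these the two-cell M values lay below all two-cell values. Mcm6 lay the other way, at 0.396, 0.115 and 0.206 FPKM in two-cell and 0.488, 1.15 and 1.17 FPKM in two-cell M (2.04 ± 1.43, limma adjusted p = 0.278). The groups of these 3 genes did not overlap, against 43.4% of all genes, and the median log2 difference was -0.62 over the 10 genes and -1.17 over all genes. Cdc6 was at 4.08, 0.255 and 0.546 FPKM in two-cell M, on both sides of its two-cell values, and its fitted difference was 0.00 ± 1.13. The difference between the mitoses was itself not tested, and these groups have a much larger spread than the zygote groups.

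In the non-polysome pool of the second mitosis 6 of 10 genes were called, against 36.1% of all genes. Cdc6 fell from 2.81, 4.92 and 0.204 FPKM to 0.0151, 0.01 and 0.01 FPKM, a log2 change of -6.94 ± 1.13 (limma adjusted p = 1.72e-05). Pcna fell from 7.22, 5.56 and 8.89 FPKM to 0.01, 1.33 and 0.01 FPKM, a log2 change of -7.12 ± 1.09 (limma adjusted p = 7.44e-06). For these 2 the groups did not overlap, and the size of both fold changes rests on the 0.01 FPKM in the table: with 1 FPKM added they were -1.57 and -2.60. Mcm7 was also lower without overlap but not called (-3.66 ± 1.47, limma adjusted p = 0.053). This makes 3 of 10 without overlap, against 28.9% of all genes. The other 4 calls were of overlapping groups. Mcm2 (-4.65 ± 1.15, limma adjusted p = 0.00217) was at 0.0153, 0.0331 and 2.55 FPKM in two-cell M, and Cdt1 (-2.81 ± 1.04, limma adjusted p = 0.0351) at 0.128, 3.54 and 24.8 FPKM. Mcm3 (4.15 ± 1.41, limma adjusted p = 0.0225) and Mcm6 (3.72 ± 1.43, limma adjusted p = 0.0422) were higher. The sizes of these 2 also rest on two-cell values at or near 0.01 FPKM. With 1 FPKM added the Mcm3 change was less than 2-fold, so its call ended. With 0.1 FPKM added 1 of 10 genes was called higher and 5 lower, and with 1 FPKM added 1 and 3. Over all genes these settings called 2805 and 2258 of 7967. Fitted with only these 6 libraries, limma called 0 of the 10 genes, Cdc6 (adjusted p = 0.0569) and Pcna (adjusted p = 0.122) included, against 875 of all 7967 genes. With a variance weight for each group (group weights) it called 2 of 10, Cdc6 and Pcna, against 12.8% of all genes. The calls of Mcm3, Mcm6 and Cdt1 were lost when some single libraries were left out, with adjusted p-values up to 0.117, 0.296 and 0.495. For Cdt1 these were two-cell B, two-cell C and two-cell M A. For Mcm3 they were two-cell A and C and two-cell M B and C, and for Mcm6 two-cell B and C and two-cell M A and B. The 3 two-cell M non-polysome libraries include the shallowest of all.

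The direct comparison of polysomes with non-polysomes sets the FPKM of a gene in the 2 pools of a stage beside each other. Each library was scaled on its own, so a ratio compares shares of 2 libraries. It does not give the part of an RNA that is bound by ribosomes. It called 0 of 10 genes in GV oocytes (4.96% of all genes), in MII oocytes (0.753%), in zygotes (1.38%) and in zygote M embryos (1.92%). At an unadjusted p under 0.05 limma gave 3, 0, 1 and 0 of 10, against 1570, 489, 588 and 983 of all 7967 genes. In GV oocytes Cdc6 lay higher in polysomes, with the values given above and a log2 ratio of 2.52 ± 1.13 (limma adjusted p = 0.211), and so did Mcm5 (1.69 ± 1.59) and Mcm3 (1.23 ± 1.41). Pcna lay lower, at 2.63, 0.674 and 2.91 FPKM in polysomes and 18.2, 22.6 and 7.53 FPKM in non-polysomes (-3.08 ± 1.09, limma adjusted p = 0.103), and so did Gmnn (-2.36). The Pcna groups did not overlap, and Pcna and Gmnn were called lower with 1 FPKM added, under quantile normalization and with group weights, and Pcna also with 0.1 FPKM added. Of the 10 genes, 5 did not overlap in GV (33.8% of all genes), 3 in MII (31.7%), 6 in zygotes (47.1%) and 4 in zygote M (23.9%). In zygotes Cdc6 was the 1 gene of the 6 that lay higher in polysomes, and with only the zygote libraries 3 of 10 were called, against 20.1% of all genes. These were Gmnn, Mcm4 and Pcna, all lower in polysomes.

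In two-cell embryos 3 of 10 genes were called, against 16.1% of all genes. Mcm3 (log2 ratio 4.28 ± 1.41, limma adjusted p = 0.0378) and Mcm5 (4.75 ± 1.59, limma adjusted p = 0.0402) were higher in polysomes, and Gmnn was lower, as given above. Mcm3 was at 0.506, 0.246 and 0.976 FPKM in two-cell polysomes, where its non-polysome values were at or near the floor. The size of its ratio rests on that floor, and with 1 FPKM added it was less than 2-fold, so its call ended. With 0.1 or 1 FPKM added, 1 of 10 genes was called higher and 2 lower. Over all genes these settings called 1465 and 1252 of 7967. All 3 calls ended without the filter on low genes (limma adjusted p = 0.0551 to 0.0799) and with group weights, and that of Gmnn also with the letters as a replicate block (0.0991). Leaving out non-polysome A or C or polysome A or C ended the call of Mcm3, and non-polysome C or any polysome library that of Mcm5, with adjusted p-values up to 0.125 and 0.279. In two-cell M embryos Cdc6 (6.17 ± 1.13, limma adjusted p = 0.000310), Cdt1 (3.47 ± 1.04, limma adjusted p = 0.0228) and Pcna (4.36 ± 1.09, limma adjusted p = 0.00660) were higher in polysomes, 3 of 10 against 14.8% of all genes. Cdc6 was above the non-polysome range in all 3 libraries, whereas the groups of Cdt1 and Pcna overlapped. The sizes for Cdc6 and Pcna rest on the 0.01 FPKM of the table, where 2 of 3 non-polysome libraries of each lay. With 1 FPKM added the Pcna ratio was less than 2-fold and 1 of 10 genes was called, against 1126 of 7967 genes. With group weights 0 of 10 were called, against 2.32% of all genes. The Cdt1 call was lost without non-polysome A, polysome A or polysome C (adjusted p up to 0.243) and that of Pcna without non-polysome A or C (up to 0.0561). With only these 6 libraries 0 of 10 were called in two-cell M (limma, 0.238% of all genes) and 2 of 10 in two-cell (6.89%), Gmnn and Pcna.

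**Figure D5:**
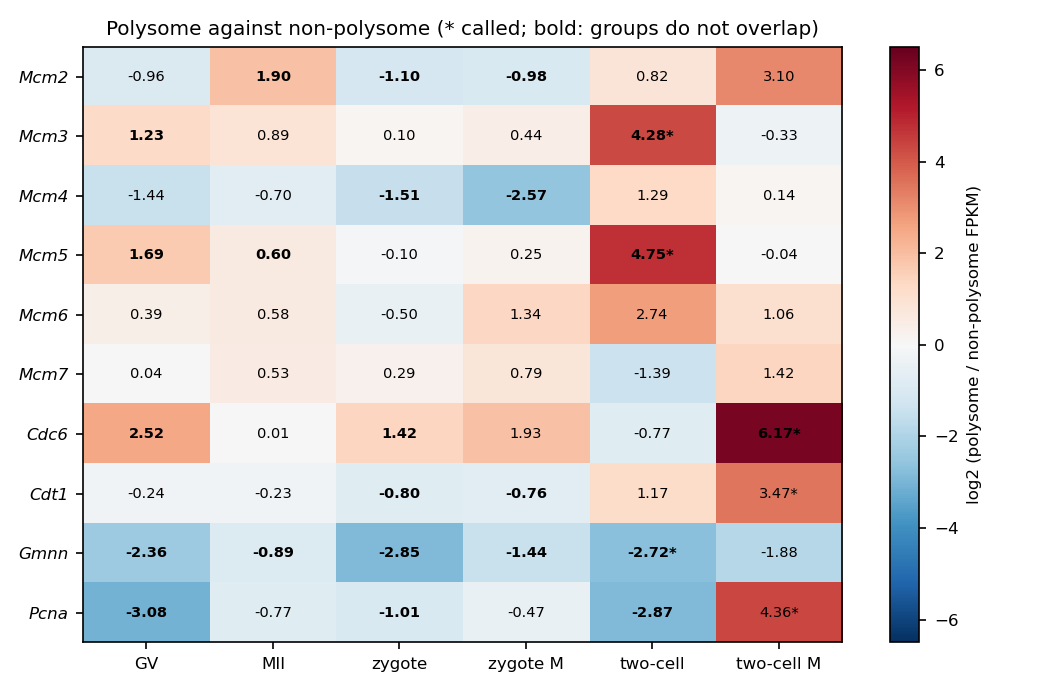
Log2 ratio of polysome to non-polysome FPKM for each gene (rows) and stage (columns), printed and coloured from blue (lower in polysomes) to red, with called ratios starred and ratios of groups that do not overlap in bold. Geminin is below 0 at all 6 stages, from -0.89 in MII to -2.85 in zygotes, and the starred ratios are all in two-cell and two-cell M embryos.

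M-phase zygotes against MII oocytes sets the first mitosis beside meiosis. In polysomes Mcm3 and Cdc6 were lower at the first mitosis, 2 of 10 called against 12.4% of all genes, with log2 changes of -4.73 ± 1.41 and -3.76 ± 1.13 (limma adjusted p = 0.0248 and 0.0255). Leaving out 1 library raised these to at most 0.155 and 0.0985. The Cdc6 call was lost without any 1 of the 6 libraries, and the Mcm3 call without any but zygote M library A. The size of the Mcm3 change rests on zygote M values near the 0.01 FPKM of the table. With 1 FPKM added this change was less than 2-fold, so its call ended. That setting called 5 of 10 genes lower, against 1282 of 7967 genes. Lower without overlap were 8 of 10 genes, all but Gmnn and Pcna, against 36.4% of all genes, and 0 of 10 were higher without overlap (57.2% of all genes in either direction). With only these libraries 6 of 10 were called (40.6% of all genes), namely Mcm3, Mcm4, Mcm5, Mcm6, Mcm7 and Cdc6. For geminin the log2 difference was -0.20 ± 0.88, and the groups overlapped.

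Two-cell M embryos against MII oocytes called 5 of 10 genes in polysomes, all lower, against 45.2% of all genes called lower and 53.0% in either direction. They were Mcm5 (log2 change -6.15 ± 1.59, limma adjusted p = 0.00209), Mcm4 (-5.71 ± 1.75, limma adjusted p = 0.00784), Mcm7 (-4.88 ± 1.47, limma adjusted p = 0.00695), Mcm2 (-2.94 ± 1.15, limma adjusted p = 0.0328) and Cdc6 (-2.84 ± 1.13, limma adjusted p = 0.0356). The median over all genes was -2.64 and over the 10 genes -2.25, so the changes of Mcm2 and Cdc6 are close to that of the median gene. Under quantile normalization, which removes that shift, 2 of 10 were called, Mcm5 and Mcm7. This count is given without the number over all genes and describes the setting only. With only these 6 libraries 2 of 10 were called as well, here Mcm2 and Mcm4, against 49.0% of all genes. Without the filter on low genes 3 of 10 were called, against 6728 of 23125 genes. The sizes rest in part on two-cell M values near the 0.01 FPKM of the table. Mcm4 was at 0.0481, 0.359 and 0.0233 FPKM there. With 0.1 or 1 FPKM added the changes of Mcm4 and Mcm7 were smaller. These settings each called 5 of 10 genes lower, against 3577 and 2584 of 7967 genes. The call of Mcm7 was lost without two-cell M library A (adjusted p 0.0777). That of Mcm2 was lost without this library or any MII library (up to 0.179), and that of Cdc6 without two-cell M B or C or any MII library (up to 0.183).

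Over all 6 stages, the limma F-test passed for 4 of 10 genes in polysomes (Mcm3, Mcm5, Mcm7 and Cdc6), against 62.9% of all genes, and that of Mcm5 was lost without two-cell M library C (adjusted p 0.122). In non-polysomes it passed for 9 of 10, all but Gmnn, against 78.3%. With the 18 polysome libraries alone the F-test passed for 9 of 10 genes, all but Cdt1, against 77.8% of all genes. The limma F-test of whether the polysome to non-polysome ratio differs between stages passed for 2 of 10, Cdc6 (limma adjusted p = 0.0435) and Pcna (limma adjusted p = 0.0152), against 8.20% of all genes. With the replicate block Pcna passed (limma adjusted p = 0.0365) and Cdc6 did not (0.0666). Of 36 refits that each left out 1 library, Cdc6 passed in 8 (adjusted p up to 0.123) and Pcna in all 36. Of the single steps only the second mitosis gave calls, 2 of 10 against 5.75% of all genes, the same 2 genes. In the two-cell M non-polysome libraries both genes were at or near the floor, apart from Pcna in library B.

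Pcna, the clamp that holds polymerases on DNA, needs care because its RNA shares 99.2% of 781 aligned bases with the processed pseudogene Pcna-ps2, listed as a gene of its own. Pcna-ps2 was above Pcna in 34 of 36 libraries, and the log2 values of the pair correlated at r = 0.842 over the 36 libraries, which share stage and depth. In zygote polysomes Pcna was at 2.32, 2.42 and 3.14 FPKM and Pcna-ps2 at 13.4, 13.8 and 14.1 FPKM. The authors' counting could split reads of the clamp between the 2 rows, so the level of Pcna is uncertain. Their sum in polysomes was 0.723 to 22.0 FPKM in GV oocytes, 14.7 to 25.2 in MII, 15.7 to 17.3 in zygotes and 11.1 to 65.6 in zygote M embryos. In two-cell embryos the sum was 3.76 to 8.94 FPKM in polysomes and 34.7 to 49.5 FPKM in non-polysomes. In two-cell M embryos it was 0.591, 4.35 and 19.3 FPKM in polysomes and 0.606, 25.2 and 0.0664 FPKM in non-polysomes, so the sums of the fractions overlapped where Pcna alone was called higher in polysomes. In the non-polysomes of two-cell M embryos Pcna-ps2 was at 0.596, 23.9 and 0.0564 FPKM, and it fell there as Pcna did (-5.20 ± 1.69, limma adjusted p = 0.0172). In contrast with Pcna, its polysome to non-polysome ratio was not called in two-cell M (1.05 ± 1.69, limma adjusted p = 0.764). Near copies of Cdc6 (Gm9430, 95.2% over 1528 bases) and Gmnn (Gm6510, 93.5% over 491 bases) reached at most 0.758 and 0.247 FPKM in any library. Those of Mcm7 (Gm5487, 97.7% over 2157 bases) and Mcm4 (Gm9577, 91.1% over 1861 bases) were not analysed here, so reads of these pairs could be shared as well. Mcm7 shares 321 exon bases with Ap4m1 and 64 with Cops6 on the opposite strand, and reads of these stretches cannot be assigned to a strand where the library kit does not mark it.

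The rest of the replication pathway was described by 67 genes in 8 lists, of which 47 were tested. These lists were drawn up with earlier results of these data known. At the first mitosis in polysomes 1 of 47 was called higher and 1 lower, against 5.75% of all genes. The higher was Rbx1, a RING subunit of the cullin ligases that degrade Cdt1, at 42.9 ± 6.37 FPKM (SD, n = 3) in zygote M and 9.83 ± 1.52 FPKM in zygote polysomes. The lower was Skp1a, an adaptor of the same ligase family, at 13.3 ± 3.06 against 69.3 ± 8.32 FPKM. The median log2 change of the 47 was -0.39, close to the -0.43 of all genes.

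From zygote to two-cell polysomes 11 of 47 pathway genes were called lower and 1 higher, against 9.82% and 6.15% of all genes. Among the lower were the flap nuclease Fen1, which trims Okazaki fragments, at 0.263 ± 0.236 against 25.6 ± 4.38 FPKM, and 2 subunits of GINS, the complex that activates the MCM helicase. Gins3 was at 0.0157 ± 0.00632 against 1.65 ± 0.243 FPKM and Gins1 at 0.0618 ± 0.0499 against 1.59 ± 0.442 FPKM. The two-cell values of both lie near the 0.01 FPKM of the table, on which the sizes rest. Fen1 was lower in the non-polysome pool too, at 0.162 ± 0.245 against 21.2 ± 2.14 FPKM. At MII against GV 1 of 47 was called higher, the clamp loader subunit Rfc2, at 5.13 ± 0.367 against 0.599 ± 0.315 FPKM in polysomes, and 1 lower, Rbx1, where 6.11% of all genes were called in either direction. Rfc2 was higher in the non-polysome pool too, at 5.39 ± 0.314 against 0.0704 ± 0.0971 FPKM. The pathway genes were followed in the fit over all libraries only. At zygote M against MII 6 were lower and 1 higher, against 8.95% and 3.40% of all genes. The lower included Tyms, which makes thymidylate for DNA synthesis, at 0.160 ± 0.0659 against 14.8 ± 4.23 FPKM. At two-cell M against MII 20 of 47 were lower and 0 higher, against 45.2% and 7.86% of all genes, whose median was -2.64. At two-cell M against two-cell 4 of 47 were higher and 11 lower, against 8.13% and 28.1% of all genes, among the lower Gins2 at 0.487 ± 0.765 against 8.63 ± 4.40 FPKM.

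The 6 MCM subunits varied only loosely together. The median Pearson r of log2 FPKM over their 15 pairs was 0.390 over the 36 libraries, against 0.159 over all pairs of tested genes, and it ranged from -0.254 to 0.610. Within the 18 polysome libraries the median was 0.361, with 0.167 over all gene pairs. The closest pair of the 10 genes in polysomes was Mcm2 with Gmnn (r = 0.760), followed by Mcm4 with Mcm5 (r = 0.738) and Cdc6 with Cdt1 (r = 0.719). The farthest apart was Mcm2 with Cdc6 (r = -0.270). In the 18 non-polysome libraries r was -0.103 for Mcm2 with Gmnn, 0.628 for Mcm4 with Mcm5, 0.470 for Cdc6 with Cdt1 and 0.391 for Mcm2 with Cdc6. The libraries share stages and depth, so these are descriptions.

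Of the 5143 genes ranked by likeness, those whose 12 group means most resembled the mean profile of Mcm2 to Mcm7 were Cpeb1 (r = 0.986), Taf1a (0.971), Gm43474 (0.971), Gm813 (0.963), Acp6 (0.960), Hp (0.960), Fahd2a (0.960) and Mfng (0.959). Cpeb1, which encodes an RNA-binding protein, was at 4.56 ± 1.33 FPKM (SD, n = 3) in MII polysomes and 0.142 ± 0.196 FPKM in two-cell M polysomes. Among the subunits themselves, the resemblance to their own mean was highest for Mcm5 (r = 0.910) and lowest for Mcm2 (r = 0.399).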

How the data were processed

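RNA of 36 libraries (12 groups of 3) was analysed; the 2 zygote samples with replicate letter A have no column in the table and were not used. The deposited values are FPKM made by the authors, who trimmed reads with Trim Galore 0.4.1, mapped them to GRCm38 with STAR 2.5.3a and quantified them, by their methods, over RefSeq genes, although the table labels its genes with Ensembl and Havana sources, so which gene models lie behind each value is uncertain. 0.01 FPKM had been added to every value. Partek Flow served for the study's own differential expression, not used here. The table gives no total counts, so depth was read only as the relative spacing of the lowest values.

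A linear model of 12 group means with trended empirical Bayes (limma 3.58.1, R 4.3.3) was applied to log2 FPKM of the 7967 genes whose geometric mean reached 0.1 FPKM. A gene was called at a Benjamini-Hochberg adjusted p below 0.05 and a fold change above 2, and in F-tests at the p alone. Folds are on the log2 scale of values that include 0.01 FPKM, which understates changes of low genes. Tests were tried on simulated data. Near copies were found with BLAST+ 2.17.0. The members, gene lists, tests and the rule for named pathway genes (all members, up to 3 called genes with the largest change per comparison, and the 8 genes with a mean of 1 FPKM or more most like the MCM mean profile) were chosen with earlier results of these data known. The alternatives were other added values, filters and scalings, only the libraries compared, a replicate block, each library left out and, added after seeing the data, a variance weight for each group.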

Additional observations from a re-analysis of the deposited data

Results flagged for a closer look

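The change from two-cell to two-cell M embryos differed between polysome and non-polysome RNA for Cdc6 and Pcna. The difference of the log2 changes was 6.94 ± 1.60 (SE, 3 libraries in each of 4 groups) for Cdc6, with a limma adjusted p of 0.00698, and 7.24 ± 1.54 for Pcna, with a limma adjusted p of 0.00362. Both passed in all 12 refits that left out 1 library, and neither passed with only these libraries or with group weights. The same difference for Pcna-ps2, a pseudogene nearly identical to Pcna that could share its reads, was 3.77 ± 2.39 (limma adjusted p = 0.417). The Pcna and Pcna-ps2 values summed to 0.591 to 19.3 FPKM in two-cell M polysomes and 0.0664 to 25.2 FPKM in non-polysomes, which overlap. The sizes of the differences for Cdc6 and Pcna rest on the 0.01 FPKM of the table. In two-cell M non-polysomes 2 of 3 libraries of each gene were at that value. With 1 FPKM added both differences were much smaller. Cdc6 also did not pass with 0.1 or 1 FPKM added or under quantile normalization. Over all 6 stages the limma F statistic for a polysome to non-polysome ratio that differs between stages was 4.64 for Cdc6 and 6.07 for Pcna, and 1.66 for Pcna-ps2 (limma adjusted p = 0.454). Relative depth was 0.318 to 0.644 in the two-cell M non-polysome libraries and 0.416 to 0.729 in the two-cell M polysome libraries, and its part in these differences was not tested.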

How the results depend on the processing

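Of 46 calls of single genes, 14 held under every setting. Of these 14, 11 were among the 15 calls of F-tests, which have no direction. Of the 31 calls with a direction 3 held, all in non-polysomes (Mcm3 for zygote M and for two-cell against zygote, and Mcm6 for two-cell against zygote), and 0 changed direction. Refitting all 46 calls, those of F-tests included, under the other settings kept 338 of 412. Leaving out 1 library, again for all 46, kept 404 of 504. Relative depth was lowest in two-cell M libraries. Its part in the shifts below, and their cause, was not tested.

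The number of the 10 genes called moved by more than 1.5 times as follows. Where given, brackets hold the number or share of all 7967 genes called under the same setting, or of 23125 without the filter. A count near that share is not a result about the 10 genes. Values scaled to a common sum and the filter at a mean of 1 FPKM moved no count that far, and each count they moved differed by 1 gene. With 0.1 FPKM added, the polysome to non-polysome comparison called 1 in GV (651). Polysome comparisons then called 1 for two-cell M against two-cell (2853) and 1 for zygote against MII (613). They called 3 for two-cell against zygote (1830) and 5 for zygote M against MII (1644). Non-polysome MII against GV gave 2 (1871) and the fraction difference of the second mitosis 1 (382). The polysome stage test gave 8 (5535) and the stage by fraction test 1 (661). With 1 FPKM added, the fraction comparison called 2 in GV (955) and 1 in two-cell M (1126). Polysome counts were 1 for MII against GV (1604), 4 for zygote M against zygote (900) and 2 for two-cell M against two-cell (2140). They were 1 for zygote against MII (980), 5 for two-cell against zygote (1675) and 1 for zygote against GV (1304). Two-cell against GV gave 2 (1806) and zygote M against MII 5 (1776). Non-polysome counts were 3 for MII against GV (1998) and 5 for zygote M against zygote (870). The fraction difference of the second mitosis gave 1 (430), the polysome stage test 8 (5451) and the stage by fraction test 1 (1110).

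Under quantile normalization most counts are given without the number over all genes, so they describe the setting and are not a result about the 10 genes. The fraction comparison then called 2 in GV and 1 in zygotes. Polysome counts were 4 for zygote M against zygote, 1 for two-cell M against two-cell, 2 for zygote against MII, 3 for two-cell against zygote, 1 for zygote against GV and 2 for two-cell M against MII. Non-polysome MII against GV gave 3 (2121), the fraction difference of the second mitosis 1, the polysome stage test 7 and the stage by fraction test 1. With group weights the fraction comparison called 2 in GV (8.76%), 1 in MII (8.27%) and 5 in zygotes (22.6%). It called 0 in two-cell embryos (3.04%) and likewise 0 in two-cell M (2.32%). Polysome counts were 1 for MII against GV (29.2%), 9 for zygote M against zygote (36.3%) and 4 for zygote against MII (35.9%). They were 5 for two-cell against zygote (37.6%) and 4 for zygote against GV (31.2%). Two-cell against GV gave 1 (27.0%) and zygote M against MII 7 (43.1%). Non-polysome counts were 2 for MII against GV (23.9%) and 2 for two-cell M against two-cell (12.8%). The fraction difference was called for 0 at the second mitosis (0.841%) and 2 for zygote against MII (3.84%). The polysome stage test passed for 10 (83.0%).

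With only the libraries compared, the fraction comparison called 3 in zygotes (20.1%) and 0 in two-cell M (0.238%). Polysome counts were 4 for MII against GV (27.1%), 8 for zygote M against zygote (33.1%) and 5 for zygote against MII (35.4%). They were 7 for two-cell against zygote (33.8%), 5 for zygote against GV (31.0%) and 1 for two-cell against GV (20.6%). Zygote M against MII gave 6 (40.6%) and two-cell M against MII 2 (49.0%). Non-polysome counts were 2 for MII against GV, 0 for two-cell M against two-cell and 2 for two-cell against zygote, the fraction difference of the second mitosis gave 0 and the polysome stage test 9. Without the filter, the fraction comparison called 0 in two-cell (1440) and polysome two-cell against zygote 0 (2427). Polysome two-cell M against MII then gave 3 (6728) and the stage by fraction test 1 (849).

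With the replicate block, polysome two-cell against zygote called 0 (1033) and the stage by fraction test 1 (463). It ended the calls given beside the results and added Mcm2 in the fraction comparison of two-cell M. Whether a letter marks 1 gradient is not stated. Deviations of the polysome and non-polysome libraries of 1 letter correlated at -0.00625 to 0.167, with 6 of 18 pairs over 0.1, and in 17 of 18 above the mean with the other letters. Letters across stages averaged 0.0205 in polysomes and 0.0176 in non-polysomes.

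Leaving out 1 library gave 0 to 3 calls for the fraction comparison of two-cell embryos (880 to 1447 of all genes). It gave 1 to 4 for that of two-cell M (898 to 1283). In polysomes it gave 0 to 1 for zygote M against zygote (272 to 354) and 0 to 1 for two-cell M against two-cell (2312 to 2785). There it gave 0 for two-cell against zygote (766 to 1123). Against MII it gave 0 to 1 for zygote M (629 to 733) and 3 to 5 for two-cell M (3653 to 4132). In non-polysomes it gave 0 to 1 for MII against GV (777 to 1362) and 1 to 3 for zygote M against zygote (441 to 833). There it gave 4 to 5 for two-cell M against two-cell (2540 to 2762) and 3 to 4 for two-cell against zygote (2010 to 2886). The fraction difference of the second mitosis gave 2 to 4 (373 to 641), the polysome stage test 4 to 5 (4447 to 4909) and the stage by fraction test 1 to 3 (508 to 866).

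Over all genes, 458 were called for zygote M against zygote in polysomes, and 375 with the block to 2895 with group weights. For two-cell M against MII they were 4224, and 3026 to 6728 under other settings. Quantile normalization moved the share of calls that were higher from 14.8% to 49.6% there, from 38.5% to 53.9% for polysome two-cell against zygote, from 10.1% to 54.3% for non-polysome zygote M against zygote and from 19.3% to 53.1% for non-polysome two-cell against zygote. For polysome zygote M against zygote it was 56.3%, 57.3% under quantile normalization and 45.2% with values scaled to a common sum. Quantile normalization moved the median log2 change of all genes from -0.43 to 0.00 there and from -1.61 to -0.08 for non-polysome two-cell against zygote.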
